A study of Mus musculus with 27 samples.

Results

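Whether the expression change that goes with NTD differs between 2 genotypes of mouse embryonic fibroblasts was measured in 12 of the 27 bulk RNA sequencing libraries of the series. These are all libraries of its second fibroblast experiment, with 3 in each of 4 groups, and they were chosen by the experiment in their titles and not by any measured value. Fibroblasts are the connective tissue cells that grow out of dissociated embryos, and these came from C57BL/6 mice. The first group was labelled WT (wild type) and the second WT-NTD. The third was labelled Het, read here as heterozygous for altered Foxm1 because the series title speaks of too little FoxM1, and the fourth Het-NTD. The labels explain neither NTD nor the altered allele, they name no drug or other agent, and they do not say whether the libraries of a group came from separate embryos, so p-values speak only of the spread among the libraries at hand. All cells were of early passage, were dividing without synchronisation and were close to confluence at harvest.

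FoxM1 is a forkhead transcription factor that works with the MuvB complex and B-Myb to switch on genes of G2 and mitosis. Many of these genes carry a short promoter element, the cell cycle genes homology region (CHR), through which MuvB binds. The series title concerns Ect2, the exchange factor that loads RhoA with GTP at cytokinesis, RhoA itself, and mDia1, the formin that RhoA activates to build actin filaments.

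The quantity tested for each gene was the interaction, (Het-NTD minus Het) minus (WT-NTD minus WT), on the log2 scale. A value above 0 means that the change with NTD was more positive in Het than in WT, whatever its direction in either. Of 14314 genes tested, 0 had an interaction that passed an edgeR quasi-likelihood test at an adjusted p of 0.05 (0% called). The lowest adjusted p was 0.259. At an unadjusted p under 0.05 there were 711 genes (4.97%), 348 above 0 (2.43%) and 363 below 0 (2.54%). DESeq2, a second count model, called 4 genes (0.0279%), namely Tnfrsf10b, Phyhip, Ucp2 and Tbc1d4. The median interaction over all genes was -3.26e-04, and 7151 of the 14314 genes lay above 0.

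How small an interaction could have been seen depends on the level of the gene. The median standard error was 0.136 log2 and the median 95% interval reached 0.296 to either side. For a single gene to be called among 14314, its unadjusted p had to be at most 3.49e-06, which at the median standard error needs a log2 interaction of 1.07, or 2.10-fold. Among 6376 genes with an average log2 CPM (CPM are counts scaled to a common library size) of 4 to 7 the median standard error was 0.0917, and 87.2% of them had an interval that lay wholly within 0.5 log2 of 0. Among 2808 genes below an average log2 CPM of 1 it was 0.636, and 0 of them had such an interval. Over all genes 8114 (56.7%) had an interval within 0.5 log2 of 0 and 10757 (75.2%) within 1 log2.

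The 12 libraries held 30247046 to 46625753 counts. The first principal component, with 45.9% of the variance, separated the 6 libraries labelled WT or WT-NTD from the 6 labelled Het or Het-NTD, and WT-NTD 1 and WT 2 lay at opposite ends of the second (12.8%), each apart from the other 10. Y-linked genes were expressed in 1 library each of WT, WT-NTD and Het (the third, the third and the first) and in all 3 of Het-NTD, with a summed level of 124 to 147 CPM against at most 0.275 CPM elsewhere. The sex of the cells is therefore unevenly spread over the groups, and a fit with a term for it, added after these values were seen, also called 0 genes. Fibroblast markers were expressed in every library (14 genes, summed level 45947 to 62939 CPM). Of 22 macrophage markers, 21 were tested, and their summed level was 276, 244 and 300.0 CPM in WT, 254, 103 and 133 in WT-NTD, 101, 15 and 38.2 in Het and 22.5, 16.2 and 23.2 in Het-NTD. The macrophage receptor genes Emr1 and Csf1r were not at 0 in any library (lowest 0.15 and 1.70 CPM). In bulk RNA, fewer cells of a type and less RNA per cell cannot be told apart. The part that sex, macrophages or these 2 libraries play in the values below was not tested, except where a value without a library or with the sex term is given.

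**Figure D1:**
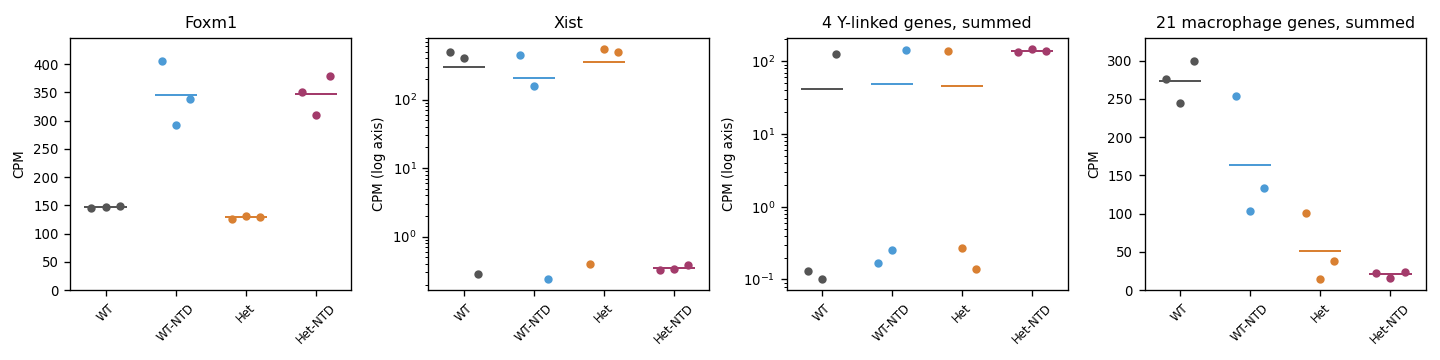
Levels in CPM of Foxm1, Xist, 4 Y-linked genes in sum and 21 macrophage genes in sum, with a point for each of the 12 libraries and a line at the group mean (n = 3); the middle panels have log axes. Foxm1 is at 293 CPM or more in all 6 NTD libraries and at 149 CPM or less in the 6 others, Xist is near 0 in all 3 Het-NTD libraries, and macrophage genes are highest in WT.

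Foxm1 itself rose with NTD in both genotypes, and its interaction did not pass the test. Its level was 145, 147 and 149 CPM in WT and 406, 293 and 339 in WT-NTD. It was 126, 131 and 130.0 CPM in Het and 351, 310.1 and 379 in Het-NTD. Every NTD library lay above every library without NTD, and the NTD libraries of the 2 genotypes overlapped. Foxm1 rose by 1.24 log2 in WT-NTD (edgeR adjusted p = 0.00137) and by 1.42 log2 in Het-NTD (edgeR adjusted p = 3.36e-04). The interaction of 0.18 had a 95% interval from -0.13 to 0.50 (edgeR adjusted p = 0.903), so the rise in Het relative to that in WT lay between 0.915-fold and 1.41-fold. The gene is at chr6:128362967-128376146 on the plus strand (GRCm38, GENCODE M21). Counts were summed over the whole gene, so the endogenous transcript and any introduced Foxm1 sequence cannot be told apart, and these counts do not check the label Het. Part of its last exon is shared with a gene listed as 4933413G19Rik, which had 4 to 12 counts in a library.

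Ect2, Rhoa and Diap1, the genes of the pathway in the title, had interactions with intervals that all spanned 0. Ect2 was at 74.7, 84.9 and 80.5 CPM in WT and 64.8, 76.3 and 81.3 in WT-NTD. It was at 57.9, 61.8 and 56.0 CPM in Het and 59.7, 64.6 and 59.7 in Het-NTD. The libraries with and without NTD overlapped in both genotypes, while all 6 Het or Het-NTD libraries lay below all 3 WT libraries. The interaction was 0.18 (95% interval -0.06 to 0.41, edgeR adjusted p = 0.892), and 0.13 with the sex term. Ect2 fell in Het against WT (-0.45 log2, edgeR adjusted p = 0.00274) and in Het-NTD against WT-NTD (-0.27 log2, edgeR adjusted p = 0.0397), and the interaction is the difference between these. Rhoa was measured more tightly, at 513, 510.1 and 512 CPM in WT, 534, 514 and 508 in WT-NTD, 504, 508 and 515 in Het and 493, 515 and 501 in Het-NTD. Its interaction of -0.04 had an interval from -0.14 to 0.06 (edgeR adjusted p = 0.930). Rhoa shares exon sequence with Tcta on the other strand, whose counts are not given here. Diap1, which encodes mDia1, had group means of 56.9, 58.2, 59.8 and 56.2 CPM in the same order and an interaction of -0.12 (-0.28 to 0.03, edgeR adjusted p = 0.892).

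The promoter of Ect2 holds 1 CHR motif and is shown because Ect2 is the gene of the title closest to the FoxM1 programme. The 250 bases before one of its 2 listed starts lie at chr3:27153879-27154128 on the minus strand (RefSeq, GRCm38.p6), and the capitals mark TTTGAA, which begins 114 bases before the start.
Ect2: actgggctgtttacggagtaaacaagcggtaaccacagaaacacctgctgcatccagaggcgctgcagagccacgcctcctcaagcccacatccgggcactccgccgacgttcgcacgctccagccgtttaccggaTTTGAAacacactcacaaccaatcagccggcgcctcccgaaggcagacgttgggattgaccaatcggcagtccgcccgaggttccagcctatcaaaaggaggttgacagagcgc

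G2/M genes driven by FoxM1 and MuvB lay mostly above 0, by small amounts that did not pass for any gene. Of 40 tested, 37 had an interaction above 0 and 3, Gtse1, Cenpf and Troap, below. The median was 0.13, beside -3.26e-04 for all genes, and the range from -0.07 to 0.31. At an unadjusted p under 0.05 there were 7 above 0 (Plk1, Kif20b, Kif20a, Prc1, Top2a, Cdc20 and Tpx2) and 0 below, beside 2.43% and 2.54% of all genes, and 38 of the 40 intervals lay within 0.5 log2 of 0. Genes of one programme move together within a library, so these counts are not independent of each other.

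Plk1, the mitotic kinase with the lowest p of that list, was at 140.3, 141 and 147 CPM in WT and 121, 142 and 146 in WT-NTD. It was at 104, 97.6 and 96.5 CPM in Het and 112, 119.8 and 113 in Het-NTD. The Het-NTD libraries lay above all Het libraries and below every WT and WT-NTD library. The interaction was 0.28 (95% interval 0.09 to 0.47, edgeR adjusted p = 0.892). Plk1 fell in Het against WT (-0.53 log2, edgeR adjusted p = 2.96e-04) and in Het-NTD against WT-NTD (-0.25 log2, edgeR adjusted p = 0.0239).

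The list as a whole had a median of -0.33 log2 in Het against WT and -0.19 in Het-NTD against WT-NTD. With NTD its median was 0.07 log2 in Het and -0.04 in WT. The summed level was 4162 to 4262 CPM in WT, 3760 to 4343 in WT-NTD, 3386 to 3529 in Het and 3526 to 3778 in Het-NTD. Libraries with and without NTD therefore overlapped in both genotypes, though only narrowly in Het. Without WT-NTD 1, the lowest of the WT-NTD libraries for Plk1, the median interaction of the list was 0.07, and without WT 2 it was 0.12. It was 0.10 with the sex term, under which 2 members had an unadjusted p under 0.05. Leaving out 1 library at a time gave 1 (without Het-NTD 2) to 15 (without WT-NTD 3) such members above 0 and 0 below.

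**Figure D2:**
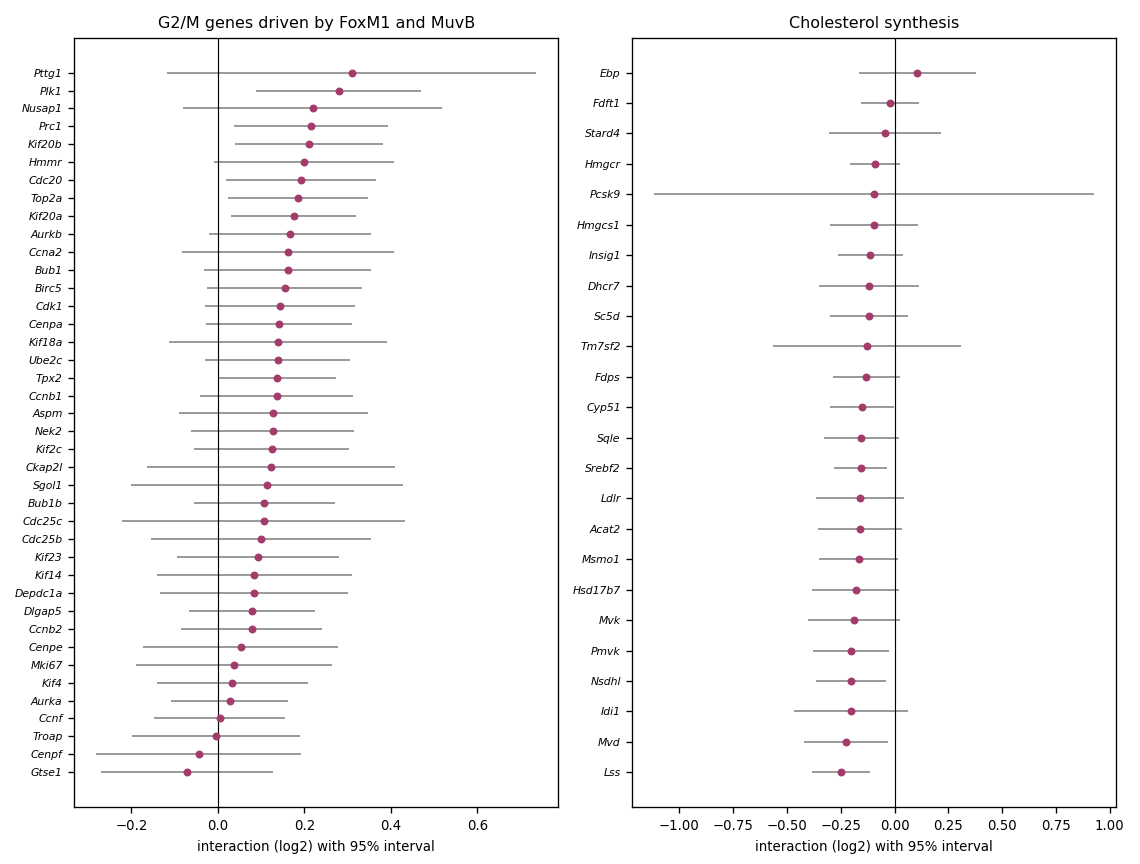
Interaction in log2 with its 95% interval for the 40 G2/M genes and 24 of the 25 cholesterol synthesis genes tested, sorted by value. Points of the G2/M list lie mostly right of 0 (37 of 40) and those of cholesterol synthesis left of it except Ebp, with few intervals that leave out 0.

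The other cell cycle lists had medians of like size. Of 28 spindle checkpoint and kinetochore genes, 26 lay above 0 (median 0.16), with 3 above 0 at an unadjusted p under 0.05 (Kif11, Mad2l1 and Cep55) and 0 below, beside 2.43% and 2.54% of all genes. Of 37 G1/S genes driven by E2F, which act in DNA replication, 32 lay above 0 (median 0.13), with 5 and 0. These medians were 0.09 and 0.08 without WT-NTD 1, and 0.12 and 0.11 with the sex term. The summed level of the spindle list was 1094 to 1147 CPM in Het and 1162 to 1194 in Het-NTD, without overlap. It was 1226 to 1277 CPM in WT and 1149 to 1301 in WT-NTD, with overlap. Summed levels of the G1/S list overlapped in both genotypes. None of the 3 cell cycle lists held a gene whose Het-NTD libraries all lay above Het and whose WT-NTD libraries all lay below WT. That arrangement was counted in 35 of all 14314 genes (0.245%), so finding none in lists of this length says little about them.

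Kif11, the kinesin that pushes spindle poles apart, was at 119.8, 128 and 125 CPM in WT and 109, 123 and 132 in WT-NTD. It was at 83.4, 89.7 and 89.3 CPM in Het and 98.0, 106 and 104 in Het-NTD. Het-NTD did not overlap with Het, and WT-NTD did overlap with WT. The interaction was 0.26 (95% interval 0.07 to 0.45, edgeR adjusted p = 0.892). Rrm2, the small subunit of ribonucleotide reductase, had the lowest p of the G1/S list, with means of 249 CPM in WT, 234 in WT-NTD, 178 in Het and 189 in Het-NTD and an interaction of 0.17 (0.04 to 0.31, edgeR adjusted p = 0.892).

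The promoter of Kif11 is shown for comparison with that of Ect2, since its motif lies on the opposite strand and close to the start. The window is chr19:37376132-37376381 on the plus strand (RefSeq, GRCm38.p6), and the capitals mark TTCAAA, the reverse complement of TTTGAA, which begins 19 bases before the start.
Kif11: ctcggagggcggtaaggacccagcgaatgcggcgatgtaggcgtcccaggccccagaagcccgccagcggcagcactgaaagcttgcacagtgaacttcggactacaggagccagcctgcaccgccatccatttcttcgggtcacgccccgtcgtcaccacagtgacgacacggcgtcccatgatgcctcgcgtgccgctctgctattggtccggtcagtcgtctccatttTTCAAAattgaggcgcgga
TTTGAA was sought on either strand of the 250 bases before each listed start, and a gene counted if any of its starts had it. It was found in 12 of 34 G2/M genes with a listed promoter (35.3%) and 8 of 24 spindle and kinetochore genes (33.3%). The motif was found in 4 of 30 G1/S genes (13.3%) and 1 of 17 cholesterol synthesis genes (5.9%), and in 4934 of all 27025 genes with a listed promoter (18.3%). CCAAT, the core of the NF-Y binding site, was found on either strand in 79.4%, 50%, 60%, 94.1% and 37.5% of these sets in the same order. Neither motif lies within the other. These are matches of letters and not measured binding.

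Cholesterol synthesis genes lay below 0 almost throughout. Of 25 tested, 24 had an interaction below 0 and 1, Ebp, above (0.11), with a median of -0.15. At an unadjusted p under 0.05 there were 7 below 0, among them Lss, Srebf2, Nsdhl, Mvd, Pmvk and Cyp51, and 0 above, beside 2.54% and 2.43% of all genes, and none passed the adjusted test. The median change with NTD was 0.11 log2 in WT and -0.02 in Het, the larger of which was that in WT. The median interaction was -0.11 without WT-NTD 3 and -0.19 with the sex term, the ends of its range over 19 alternative fits.

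Lss, the lanosterol synthase that closes the sterol rings, was at 111, 105 and 109.8 CPM in WT and 121, 119 and 129.8 in WT-NTD. It was at 113, 106 and 106 CPM in Het and 104, 101 and 105 in Het-NTD. All WT-NTD libraries lay above WT and all Het-NTD libraries below Het. The interaction was -0.25 (95% interval -0.38 to -0.11, edgeR adjusted p = 0.892). Lss shares exon sequence with 4930483K19Rik on the other strand, whose counts are not given here. Srebf2, the transcription factor that drives sterol genes, had means of 286, 297, 310.5 and 289 CPM in WT, WT-NTD, Het and Het-NTD and an interaction of -0.16 (edgeR adjusted p = 0.892).

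Targets of p53 lay mostly below 0. Of 27 tested, 22 were below and 5 above, with a median of -0.22, and 3 had an unadjusted p under 0.05, all below 0 (Tnfrsf10b, Plk3 and Aen), beside 2.54% of all genes below 0. Without WT-NTD 1 the median was -0.07 and 18 of the 27 lay below 0. WT-NTD 1 had the highest Foxm1 of all libraries (406 CPM). It also lay at an end of the second principal component and had the most macrophage RNA of the WT-NTD libraries (254 CPM). Whether any of these goes with the p53 values was not tested. Glycolysis and hypoxia genes lay mostly above 0 (26 of 31, median 0.09), with 4 above at an unadjusted p under 0.05 (Bnip3l, Pfkp, Tpi1 and Pgk1) and 0 below, beside 2.43% and 2.54% of all genes. That median was 0.16 without WT 2, 0.05 without WT 1 and 0.05 without Het 2. Bnip3l, a mitophagy receptor induced in hypoxia, had means of 62.8, 60.3, 71.9 and 81.2 CPM in WT, WT-NTD, Het and Het-NTD and an interaction of 0.23 (0.11 to 0.36, edgeR adjusted p = 0.892).

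Tnfrsf10b had the lowest p of all 14314 genes. It encodes the mouse death receptor for TRAIL, a ligand that triggers apoptosis, and lies at chr14:69767472-69784411 on the plus strand. Its level was 44.3, 46.2 and 50.5 CPM in WT and 60.5, 56.2 and 57.8 in WT-NTD. It was 54.0, 51.9 and 52.4 CPM in Het and 43.3, 44.8 and 48.0 in Het-NTD. The WT-NTD libraries lay above all WT libraries and the Het-NTD libraries below all Het libraries. The change with NTD was 0.31 log2 in WT and -0.22 in Het, neither past the adjusted test (edgeR adjusted p = 0.227 and 0.584). The interaction was -0.53 (95% interval -0.70 to -0.36), with an unadjusted p of 1.81e-05 and an edgeR adjusted p of 0.259 against a DESeq2 adjusted p of 1.36e-04. It was -0.57 with the sex term (edgeR adjusted p = 0.308), and the edgeR adjusted p lay between 0.0715 (without WT 3) and 0.877 (without Het 3) when 1 library was left out.

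Phyhip, which encodes a protein that binds phytanoyl-CoA hydroxylase, was close to undetected in every library but those of WT-NTD. It lies at chr14:70457476-70468832 on the plus strand. Its level was 0.263, 0.128 and 0.199 CPM in WT and 3.22, 3.59 and 3.26 in WT-NTD. It was 0.0710, 0.225 and 0.223 CPM in Het and 0.423, 0.255 and 0.127 in Het-NTD. Het and Het-NTD overlapped, and the 3 WT-NTD libraries stood above the other 9. Phyhip rose in WT-NTD by 4.07 log2 (edgeR adjusted p = 0.00320), and its change in Het-NTD was 0.65 log2 (edgeR adjusted p = 0.894). The interaction of -3.42 (95% interval -4.88 to -1.96) did not pass in edgeR (adjusted p = 0.892) and passed in DESeq2 (adjusted p = 0.00526).

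Ucp2, a carrier of the inner mitochondrial membrane, differed between the genotypes by far more than it did with NTD. Its level was 15.9, 18.5 and 15.6 CPM in WT and 12, 11 and 12.5 in WT-NTD. It was 174, 159 and 168 CPM in Het and 172, 166 and 159.6 in Het-NTD. WT-NTD lay below all WT libraries, while Het-NTD and Het overlapped. The change with NTD was -0.50 log2 in WT (edgeR adjusted p = 0.0548) and -0.01 in Het. The interaction was 0.48 (95% interval 0.27 to 0.69, edgeR adjusted p = 0.892, DESeq2 adjusted p = 0.0362). Dnajb13, on the opposite strand, shares exon sequence with it and had 0 to 17 counts in a library.

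Tbc1d4, the Rab GTPase-activating protein through which insulin moves glucose transporters, was the fourth gene called by DESeq2. Its level was 7.73, 8.78 and 8.59 CPM in WT and 4.13, 4.78 and 4.18 in WT-NTD. It was 4.66, 5.15 and 4.73 CPM in Het and 5.28, 7.98 and 4.41 in Het-NTD. All WT libraries lay above WT-NTD, and Het-NTD, with 1 library high, overlapped with Het. The interaction was 1.22 (95% interval 0.66 to 1.78, edgeR adjusted p = 0.892, DESeq2 adjusted p = 0.0465).

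**Figure D3:**
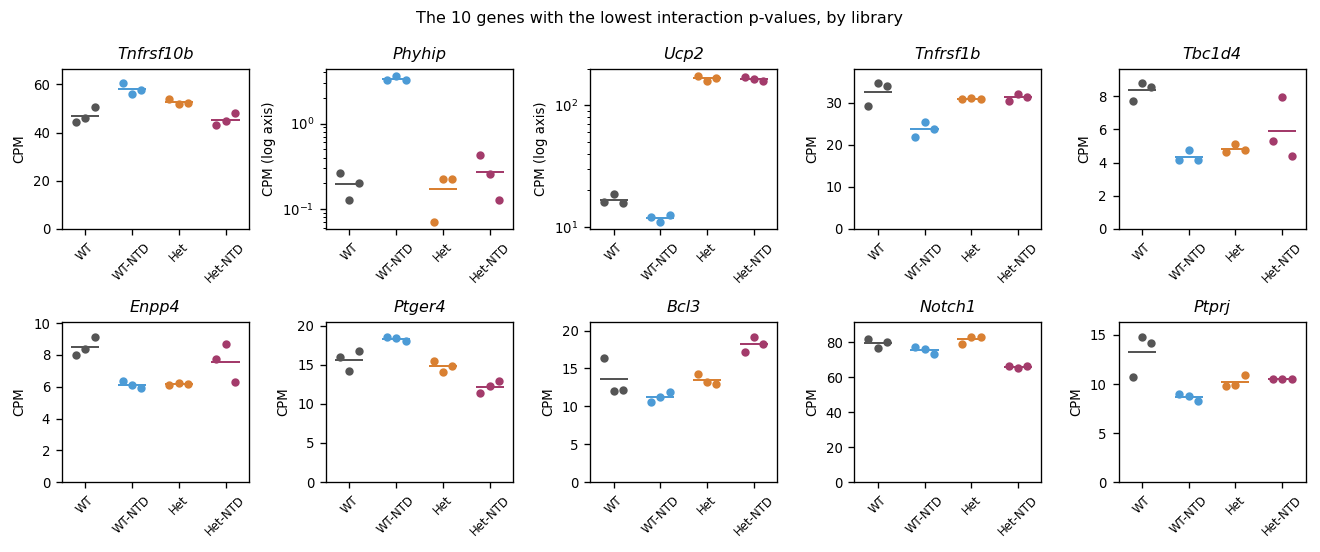
Levels in CPM of the 10 genes with the lowest interaction p in edgeR, with a point for each library and a line at the group mean (n = 3); Phyhip and Ucp2 have log axes, the others start at 0. Tnfrsf10b, Enpp4, Ptger4 and Bcl3 shift in opposite directions in the genotypes without overlap, whereas Ucp2, Tnfrsf1b and Ptprj are lower in WT-NTD than in WT and overlap in Het.

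The other genes among the 10 lowest p-values each had an edgeR adjusted p of 0.892. For Tnfrsf1b, a receptor for tumour necrosis factor, WT was at 29.3, 34.6 and 34.0 CPM and WT-NTD at 21.9, 25.5 and 23.7, whereas Het (30.8 to 31.0) and Het-NTD (30.4 to 32.2) overlapped (interaction 0.48). Ptprj, a receptor tyrosine phosphatase, showed the same arrangement, with 10.7, 14.8 and 14.2 CPM in WT, 9.0, 8.74 and 8.26 in WT-NTD, 9.80 to 10.9 in Het and 10.5 in each Het-NTD library (interaction 0.66). Tnfrsf1b and Ptprj are also made by macrophages, whose summed markers were lower in 2 of the 3 WT-NTD libraries than in WT and differed between the Het libraries, and their part in these values was not tested.

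Bcl3, an I kappa B family protein that acts with NF-kappa B in the nucleus, was at 16.4, 12 and 12.2 CPM in WT, 10.5, 11.3 and 11.9 in WT-NTD, 14.3, 13.2 and 12.9 in Het and 17.2, 19.2 and 18.2 in Het-NTD (interaction 0.71). Enpp4, an ectonucleotide phosphodiesterase, had means of 8.52, 6.13, 6.17 and 7.58 CPM in the same order (interaction 0.77). In both genes every WT-NTD library lay below WT and every Het-NTD library above Het. Ptger4, a receptor for prostaglandin E2, did the reverse, with means of 15.6, 18.4, 14.8 and 12.2 CPM (interaction -0.52). It shares exon sequence with Ttc33 on the other strand, which had 385 to 666 counts in a library, and a kit that does not mark strand cannot separate these genes there.

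Notch1, the receptor that is cleaved to a transcriptional activator, was at 81.8, 76.6 and 80.2 CPM in WT and 77.2, 76.3 and 73.4 in WT-NTD. It was at 78.9, 82.9 and 83.2 CPM in Het and 66.4, 65.4 and 66.3 in Het-NTD. The Het-NTD libraries lay below the other 9. Notch1 fell by 0.31 log2 in Het-NTD against Het (edgeR adjusted p = 0.0322), the only gene besides Foxm1 that edgeR called there (2 genes, 0.014%), while DESeq2 called 23 (0.161%). Its change in WT-NTD was -0.07, and the interaction of -0.23 (95% interval -0.36 to -0.11) did not pass (edgeR adjusted p = 0.892). No gene was called lower in Het-NTD, so that Notch1 was not called, with the sex term, with the replicate block, or without WT 3, WT-NTD 2, WT-NTD 3, Het 2, Het 3 or any 1 Het-NTD library.

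Opposite shifts with no overlap in either genotype were counted in 35 genes with NTD higher in Het and lower in WT (0.245% of those tested) and in 39 with the reverse (0.272%). Some genes show such an arrangement in groups of 3 with no change at all, both directions were about as frequent, and no test was made of these counts. Of the genes named here, Enpp4 and Bcl3 were among the former, and Tnfrsf10b, Ptger4 and Lss among the latter.

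Beyond single genes, the 2 changes with NTD were weakly alike and the 2 changes with genotype strongly alike. WT-NTD minus WT and Het-NTD minus Het, which have no library in common, had a Pearson r of 0.213 and a Spearman coefficient of 0.113 across 14314 genes. Het minus WT and Het-NTD minus WT-NTD, again from separate libraries, had a Pearson r of 0.777 and a Spearman coefficient of 0.647. The standard deviation across genes was 0.322 and 0.355 log2 for the changes with NTD and 0.638 for each change with genotype. The lower coefficient thus belongs to smaller changes, and it does not show that the change with NTD differs between the genotypes. These are correlations across genes within 1 set of cultures, the libraries share preparation and scaling, and genes are not independent replicates. In WT-NTD against WT, edgeR called 2 genes (0.014%), Foxm1 and Phyhip, and DESeq2 called 28 (0.196%). Without WT 1 edgeR called 119 genes in place of 2, of which 53 were higher and 66 lower.

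**Figure D4:**
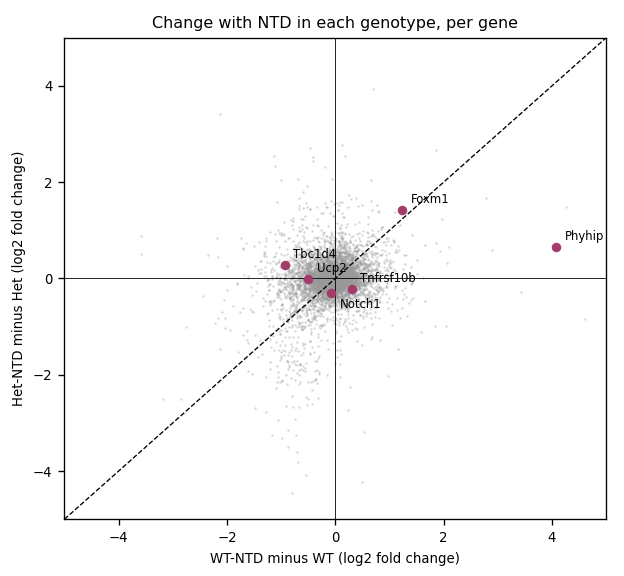
Change with NTD in WT (horizontal) and in Het (vertical), both as log2 fold change, with a point for each of 14307 genes; Xist and 6 genes beyond 5 log2 are not drawn. A gene with no interaction would lie on the dashed diagonal; Foxm1 lies close to it, Phyhip far to the right of it, and most genes form a round cloud at 0.

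Nearly all of the 2362 genes called in Het against WT (16.5%) had the same direction in the NTD libraries. Of 1130 higher in Het, 1103 (97.6%) had the same sign in Het-NTD against WT-NTD, beside 50.9% of all genes above 0, and the median went from 0.38 to 0.27 log2. Of 1232 lower in Het, 1208 (98.1%) had the same sign, beside 49.1% of all genes below 0, and the median went from -0.73 to -0.50 log2. These genes were chosen by the first of each pair of values, so a smaller second value is part of how they were chosen. Het-NTD against WT-NTD called 1643 genes (11.5%), and 0 genes were called in opposite directions. The 503 genes called higher in both made up 44.5% of the first set and 67.1% of the second, and the 607 called lower in both made up 49.3% and 68.0%. As no interaction passed, a gene called in one of these comparisons and not in the other was not shown to differ between them.

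Several lists of developmental and cell type genes had larger medians than the cell cycle lists, and these medians moved with single libraries. Limb and craniofacial patterning factors had a median of 0.22, with 31 of 42 above 0 and 4 of them at an unadjusted p under 0.05 (Tbx2, Six2, Alx1 and Alx4) beside 2.43% of all genes, but without WT 2 it was -0.02. It was 0.06 without WT-NTD 1, 0.12 without Het 3, 0.40 without WT 1 and 0.48 without WT-NTD 2. Tbx2, a T-box repressor of limb and heart development, was at 6.94, 14.6 and 10.0 CPM in WT, 6.35, 8.67 and 7.28 in WT-NTD, 4.28, 4.98 and 4.59 in Het and 7.18, 7.24 and 5.43 in Het-NTD. WT 2 had the highest Tbx2 of all libraries, and the interaction was 1.02 (0.31 to 1.73, edgeR adjusted p = 0.892). Cartilage and bone markers (15 of 18 above 0, median 0.40) had a median of 0.04 without WT 2, 0.12 without WT-NTD 1, 0.20 without Het 3 and 0.73 without WT-NTD 2. Skeletal muscle markers (14 of 16, median 0.54) had one of 0.20 without WT 2 and 0.33 without Het-NTD 1. Mgp, a matrix inhibitor of calcification, likewise ranged from 120.3 to 308 CPM within WT, where WT 2 was highest, against 55.6 to 59.8 in Het-NTD.

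Mesothelial markers had a median of 0.42 (8 of 10 above 0), and it was 0.10 without Het-NTD 3, 0.25 without Het 3, 0.67 without Het-NTD 2 and 0.69 without Het 1. Wt1, a transcription factor of the mesothelium, was at 6.10, 6.68 and 5.46 CPM in WT, 3.73, 6.32 and 6.83 in WT-NTD, 4.52, 6.58 and 7.24 in Het and 11.2, 11.6 and 9.86 in Het-NTD. Its Het-NTD libraries lay above the other 9, and the interaction was 0.95 (0.29 to 1.60, edgeR adjusted p = 0.892). Macrophage markers had a median of -0.83 with 19 of 21 below 0, but 0 of them had an unadjusted p under 0.05, and without Het 1, the Het library with the most macrophage RNA, the median was 0.28. It was -1.35 without Het 2 and -0.35 without WT-NTD 1. Hox genes had a median of -0.19 (25 of 37 below 0), with -0.29 without WT 1, -0.08 without WT 2, -0.11 without WT 3 and -0.10 without WT-NTD 1.

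Among the other cell type lists with at least 5 tested genes, that of epithelial markers lay farthest from 0. The medians were -0.06 for 14 fibroblast markers (-0.11 to -0.02 over the alternative fits), -0.04 for 12 smooth muscle and pericyte markers (-0.07 to 0.03) and -0.09 for 19 neural and glial markers (-0.40 to 0.02). They were -0.01 for 7 adipocyte markers (-0.10 to 0.22), -0.02 for 5 cardiac markers (-0.23 to 0.76) and -0.18 for 11 endothelial markers (-0.31 to 0.07). Of these 6 medians only that of fibroblast markers kept its sign in every fit. Epithelial markers had a median of 0.32 (10 of 11 above 0), with 0.22 to 0.56 over the alternative fits, the highest of which left out Het-NTD 2.

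Medians of lists of secreted signals lay above 0 by amounts that moved with single libraries. None of their genes above 0 had an unadjusted p under 0.05, beside 2.43% of all genes. Below 0 there were 2 among senescence and secreted factors, 1 among chemokine ligands, 1 in the Wnt pathway and 0 in the BMP list, beside 2.54% of all genes. Ccl2 (interaction -0.31, edgeR adjusted p = 0.892) is in the first 2 of these lists, and the Wnt gene was Wnt7b (-1.68, edgeR adjusted p = 0.892). BMP ligands, antagonists and targets, which act in bone and limb formation, had a median of 0.29 (17 of 22 above 0). It was 0.05 without WT 2, 0.13 without Het 3, 0.17 without WT-NTD 1 or Het-NTD 1, 0.52 without WT 1 and 0.54 without WT-NTD 2. The Wnt pathway had a median of 0.24 with 16 of 29 above 0, and it was 0.02 without WT 2, 0.09 without WT-NTD 1, 0.16 without Het 3, 0.37 without WT 1 and 0.41 without WT-NTD 2. Chemokine ligands, which attract leukocytes, had a median of 0.30 (16 of 21 above 0), with 0.18 without Het 2, 0.19 without WT-NTD 3 and 0.51 without Het 1. Senescence and secreted factors had a median of 0.13 with 12 of 23 above 0, and it was -0.06 with the sex term, -0.04 without WT 3, 0.08 without WT-NTD 1 and 0.09 without WT-NTD 2.

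Lists of matrix, actin and ribosomal genes and of targets of YAP, TEAD and TGF-beta lay near 0. The medians were -0.06 for 28 collagens, 0.00 for 35 other matrix genes, -0.05 for 28 targets of SRF and MRTF with actin genes, -0.03 for 22 targets of YAP and TEAD, -0.06 for 20 TGF-beta targets and -0.02 for 34 ribosomal protein genes. Over the alternative fits these medians ranged from -0.18 (collagens without WT 1) to 0.04 (other matrix genes without WT 3), and all but that of TGF-beta targets changed sign in at least 1 fit. Immediate early genes had a median of -0.12 (14 of 20 below 0), and interferon-stimulated genes one of 0.11 (22 of 31 above 0). The former was -0.02 without WT-NTD 1 and -0.06 without Het 1, and the latter ranged from -0.03 without WT-NTD 1 to 0.36 without WT-NTD 3. Fbln5, an elastic fibre protein and the matrix gene with the lowest p, was at 839, 685 and 673 CPM in WT, 857, 844 and 813 in WT-NTD, 687, 655 and 700.1 in Het and 572, 532 and 611 in Het-NTD. Its Het-NTD libraries lay below the other 9, and the interaction was -0.45 (-0.68 to -0.21, edgeR adjusted p = 0.892). Col18a1, the precursor of endostatin, was the collagen with the lowest p, with means of 134 CPM in WT, 135 in WT-NTD, 226 in Het and 179 in Het-NTD and an interaction of -0.35 (edgeR adjusted p = 0.892).

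**Figure D5:**
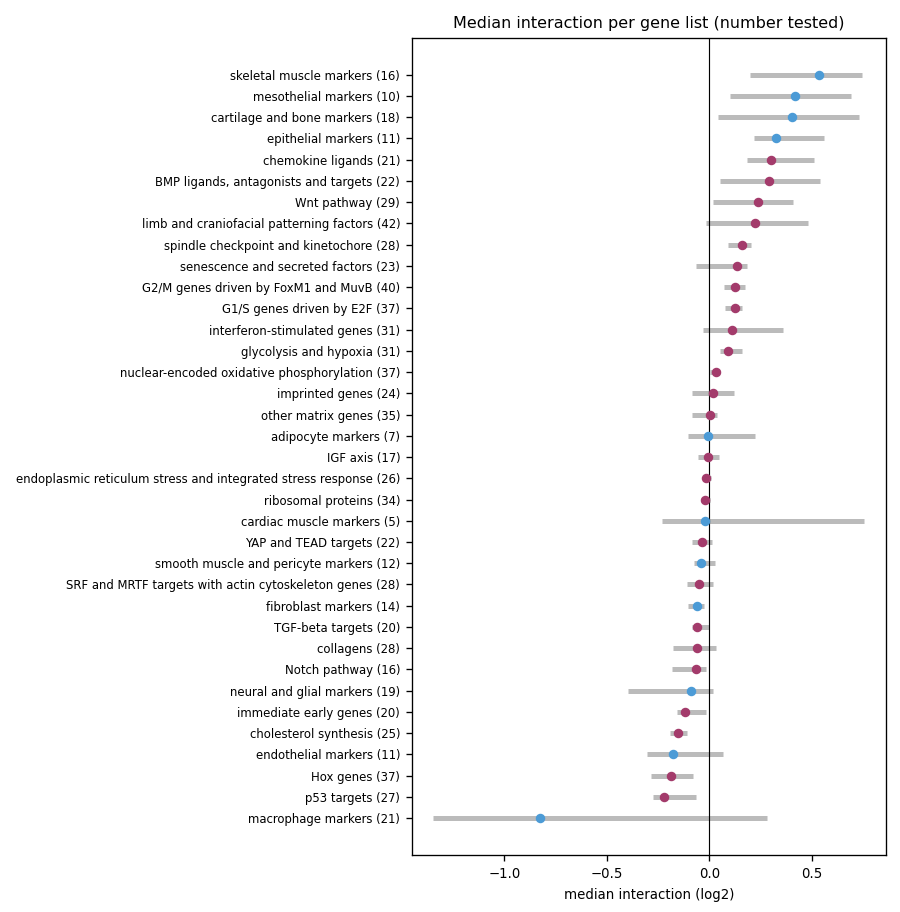
Median interaction in log2 of the gene lists with at least 5 tested genes (number in parentheses; 2 such lists are not drawn), red for pathways and blue for cell type markers, with grey bars from the lowest to the highest median over 19 alternative fits. Cell cycle and cholesterol lists have short bars on one side of 0, as do fibroblast markers, while the bars of patterning, cartilage and skeletal muscle lists are long, and that of macrophage markers reaches from -1.35 to 0.28.

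Genes on the X chromosome held a share of low p-values near that of all genes. Of 462 tested, 20 (4.33%) had an unadjusted p under 0.05, beside 4.97% of all genes. Of 4 Y-linked genes tested, 0 had such a p, with a median interaction of 1.39. WT, WT-NTD and Het each mix libraries with and without Y-linked expression, which widens the spread of genes that differ by sex. These shares therefore say little about sex. Xist, the RNA that silences one X chromosome in female cells, had the largest interaction in size among genes whose log2 CPM averaged 1 or more. It was at 501, 407 and 0.284 CPM in WT, 451, 159 and 0.244 in WT-NTD, 0.402, 544 and 498 in Het and 0.329, 0.341 and 0.382 in Het-NTD. WT-NTD 2 had a level between the others in which Xist was expressed and those in which it was near 0. The interaction of -9.37 had an interval from -21.79 to 3.04 (edgeR adjusted p = 0.892) and was 0.44 with the sex term.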

How the data were processed

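As deposited, the data are raw read counts by gene symbol in 1 table from the authors. Per the submitters' processing notes the build was mm10 and the tools were Bowtie2 2.2.6, TopHat2 2.0.14, Subread and featureCounts 1.4.6. Which annotation was used, and whether counting was stranded, is not given in the sources used here. Per the labels' protocols, the libraries were made with a TruSeq kit that does not mark strand. Wnt7b and Xist, like Lss and Rhoa, share exon sequence with a gene on the other strand.

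Of 24062 symbols, 14314 passed filterByExpr by group. The 12 libraries (30247046 to 46625753 counts) were fitted together with edgeR 4.0.16 in R 4.3.3 (TMM scaling, robust quasi-likelihood F test, two-sided, 8 residual degrees of freedom and a shared biological coefficient of variation of 0.114), with Benjamini-Hochberg adjustment over all genes tested and a threshold of 0.05. Intervals are 95% Wald intervals from the fitted weights and shrunken dispersions. CPM are counts divided by the TMM-scaled library size. DESeq2 1.42.0, other filters and scalings, a replicate block, a sex term (libraries above 10 CPM of summed Y-linked genes, added after seeing the data) and leaving out each library were alternatives. The steps were tested on simulated data in which some genes of Het-NTD were shifted by 1 or 2 log2 and the groups were otherwise alike. Smaller shifts were not simulated. No 2 libraries of a group were alike within counting noise (a chi-square test gave at least 5.81 for each degree of freedom), and each counted as 1 sample. Exact permutation tests were not used, since 3 against 3 libraries give p = 0.1 at best.

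The rule for named genes was Foxm1, Ect2, Rhoa and Diap1, then the 10 genes lowest in p, because fewer than 3 were called, and the member with the lowest p of each of 43 lists. Other names were chosen after their values were seen, and some genes and lists are not reported here. The comparison, its members and the lists were chosen with earlier results of these data known. Coordinates are from GENCODE M21 (GRCm38, the assembly of mm10), promoters from RefSeq (GRCm38.p6), and 23902 of the symbols matched a RefSeq symbol or synonym.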

Additional observations from a re-analysis of the deposited data

Results flagged for a closer look

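The change with NTD differed between the genotypes by a direct test in DESeq2, though not in edgeR, for 4 genes. The DESeq2 adjusted p was 1.36e-04 for Tnfrsf10b (log2 interaction -0.53), 0.00526 for Phyhip (-3.42), 0.0362 for Ucp2 (0.48) and 0.0465 for Tbc1d4 (1.22). The edgeR adjusted p was 0.259 for Tnfrsf10b and 0.892 for the other 3.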

How the results depend on the processing

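The interaction count was 0 in every edgeR fit on all 12 libraries (other scaling, no or a stricter filter, non-robust, replicate block, sex term) and 4 in DESeq2, with 2 above and 2 below 0. Leaving out 1 library gave 0 to 2 genes, 0 to 1 above and 0 to 1 below 0. These were Col6a3 without WT 1 (edgeR adjusted p = 0.0219), Emp1 without WT-NTD 1 (0.0487), BC002163 without WT-NTD 3 (0.00112), and Rps15a-ps6 (0.0490) and Rps15a-ps4 (1.96e-04) without Het 1. The share of genes with an unadjusted p under 0.05 was 4.97% with all 12 libraries. Leaving out 1 library moved it from 3.25% (471 genes, without Het-NTD 2) to 9.40% (1367 genes, without WT 1), and it was 7.11% without WT-NTD 2. The cause of these changes was not tested.

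For Het-NTD against Het, DESeq2 called 23 genes (6 higher, 17 lower), the replicate block 1 (0 lower), the sex term 1 (0 lower), and fits without 1 library 1 to 3 (1 to 3 higher, 0 to 2 lower). For WT-NTD against WT, DESeq2 called 28 (6 higher, 22 lower), no filter 5 (3 lower), the replicate block 4 (2 lower), and fits without 1 library 2 to 119 (2 to 53 higher, 0 to 66 lower). For Het against WT the fits without 1 library gave 1304 to 2682 (598 to 1234 higher, 706 to 1448 lower). The count was lowest without Het 3, and it was 1534 without Het 2 and 1565 without WT 2. For Het-NTD against WT-NTD they gave 739 to 1846 (339 to 842 higher, 400 to 1004 lower), and the sex term gave 1093 (579 lower). The counts moved by over 1.5 times without WT-NTD 2 (1016), WT-NTD 3 (1011), Het-NTD 1 (739, the lowest), Het-NTD 2 (811) and Het-NTD 3 (1022).

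Among 964 alternative values of named genes, 7 changed sign. They were Xist with the sex term (0.44), Trp63 without WT 2 (-0.25; 2.2 without WT-NTD 2), and Lck with the sex term (0.25) and without the second library of WT (0.09), WT-NTD (0.35), Het (0.11) and Het-NTD (0.08; -0.34 without WT-NTD 3). None of these 3 genes passed in the main comparison (edgeR adjusted p 0.892 to 0.987).

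The replicate numbers were not taken as pairs in the main fit. Of 18 same-numbered pairs, 6 had deviations correlated above 0.1 (range -0.21 to 0.45), and 5 of 12 libraries correlated best with their own number. Between WT and WT-NTD the same-numbered pairs had correlations of 0.24, 0.45 and 0.07, and in both groups only the third library expressed Y-linked genes. Whether libraries of these 2 groups share an origin was not tested. Het 2 and Het 3 did not express Y-linked genes, whereas Het-NTD 2 and Het-NTD 3 did, so those same-numbered libraries differ in sex. The replicate block gives all groups the same numbering, and no fit paired WT with WT-NTD alone. With the replicate block, 885 genes had an unadjusted p under 0.05. The median standard error of the interaction was 0.636 log2 for genes below an average log2 CPM of 1 and 0.0917 for those of 4 to 7. How much of it comes from low counts and how much from spread between libraries was not tested.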

Other observations

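Genes named in this paragraph were called only when 1 library was left out, and were chosen after their values were seen. BC002163 had 276 and 332 counts in WT-NTD 1 and WT-NTD 2, 8 in WT-NTD 3 and 2 to 10 in the other 9 libraries. Rps15a-ps6 was at 6.20, 12.4 and 12.1 CPM in Het, 6.83, 6.66 and 6.42 in Het-NTD and 0.737 to 0.847 in WT, whereas Rps15a-ps4 was at 4.24, 0.10 and 0.278 CPM in Het, 3.90, 4.26 and 3.97 in Het-NTD and 6.52 to 7.65 in WT. These are copies of a ribosomal protein gene that can share reads, so their split is uncertain. Col6a3, a collagen VI chain, was at 2483 CPM in WT 1 against 1550.5 and 1615 in WT 2 and WT 3. Emp1, an epithelial membrane protein, was at 1247 CPM in WT-NTD 1 against 1549 and 1581 in WT-NTD 2 and WT-NTD 3.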
